A study of Sus scrofa with 12 samples.

Results

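The antioxidant enzymes described here are 10 genes taken from the deposited gene table by their exact symbols. They are the superoxide dismutases SOD1 and SOD2, catalase (CAT), the glutathione peroxidases GPX1, GPX3 and GPX4, the peroxiredoxins PRDX3 and PRDX6, thioredoxin (TXN) and glutathione reductase (GSR). All 10 were found among the 29884 genes of the table, and all 10 were among the 12260 genes with at least 1 FPKM in at least 3 libraries. FPKM is the number of fragments per kilobase of transcript, scaled to the mapped total of the library, so levels can be compared between genes. The tissue was the left ovary of pigs (Sus scrofa), taken at slaughter 4 days after the 4th delivery from sows of 1 commercial farm, and 1 library of RNA without ribosomal RNA was made from each ovary. The small litter size (SLS) group held 3 ovaries, ZD2, ZD3 and ZD12, from sows with 8.48 ± 0.53 piglets per litter. The large litter size (LLS) group held 3 ovaries, ZD5, ZD7 and ZD8, from sows with 16.19 ± 0.43 piglets per litter. No treatment was given, and the farm, the parity and the day were shared by both groups. Each library is a mixture of all cell types of an ovary at a single time after delivery.

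Superoxide leaks from the respiratory chain and from the cytochromes P450 that make steroids, so luteal cells, which make progesterone, are a known site of oxidant production. Superoxide dismutases turn superoxide into hydrogen peroxide, which catalase, glutathione peroxidases and peroxiredoxins then reduce. Glutathione reductase and the thioredoxin system return the spent glutathione and thiols to their reduced form with electrons from NADPH.

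The catalytic residues of 6 of the enzymes are shown as they stand in the pig genome, since they set the cofactor each enzyme depends on and the other genes that are read beside it. Each line gives spliced coding sequence 5′ to 3′ on the strand of the gene, from RefSeq on Sscrofa11.1. In the glutathione peroxidases, the capitals mark the UGA codon, written TGA, that is read as selenocysteine, at chr13:31917180-31917182 (minus strand, exon 1 of 2) in GPX1, chr16:71984098-71984100 (minus strand, exon 2 of 5) in GPX3 and chr2:77322633-77322635 (minus strand, exon 3 of 7) in GPX4. In the peroxiredoxins, they mark the codon of the cysteine that attacks the peroxide, at chr14:129086242-129086244 (minus strand, exon 4 of 7) in PRDX3 and chr9:115861529-115861531 (plus strand, exon 2 of 5) in PRDX6. In TXN, they mark the codons of the redox-active cysteine pair and the residues between them, at chr1:251272663-251272674 (minus strand, exon 2 of 5).
GPX1: gtagcgtcgctcTGAggcacaacggtgcgg
GPX3: gtggccagctacTGAggcctgacgggccag
GPX4: gtggcctctcaaTGAggcaagacggaggta
PRDX3: ttcacctttgtgTGTcctacagaaattatt
PRDX6: ttcaccccagtgTGCaccacagagcttggc
TXN: gccacgtggTGTGGGCCTTGCaaaatgatc

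The library totals inferred from the FPKM values lay between 51703531 and 60903268 reads in 5 ovaries and at 32272803 in ZD8. ZD8 stood apart from the other 5. The luteal markers STAR (cholesterol import into mitochondria), CYP11A1 (side-chain cleavage of cholesterol), HSD3B1 (the step to progesterone) and SCARB1 (lipoprotein cholesterol uptake) were all far lower there. STAR was 2542, 4790 and 2722 FPKM in ZD2, ZD3 and ZD12, 5418 and 4429 in ZD5 and ZD7, and 26.4 in ZD8. The summed level of 8 luteal markers was 9845 to 12775 FPKM in the other 5 ovaries and 171 in ZD8, and 8 of 8 were lowest there. None of the 8 was at 0 in ZD8. The other 5 ovaries are therefore described as ovaries with a luteal steroid transcript set, and the group differences of the 10 members are given with and without ZD8. In such bulk samples, fewer cells of a type and less RNA per cell cannot be told apart.

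None of the 10 enzymes passed the test between LLS and SLS (limma, Benjamini-Hochberg adjusted p = 0.999 for each), and none of the 12260 genes did (0%). At an unadjusted limma p under 0.05 there were 216 genes, 68 higher and 148 lower in LLS, and limma voom on recovered reads called 0 genes, with 201 at that unadjusted p. Without ZD8 the limma count was 709, with 384 higher and 325 lower in LLS, so both the count and its balance depended on that ovary. GPX1 was the member with the clearest separation, with a mean level 2.58-fold higher in SLS ovaries. GPX3 was the most abundant, and its level lay within a 1.85-fold range in 5 ovaries and was at least 20.0-fold lower in ZD8. ZD8 was the lowest of the 6 ovaries for 9 of the 10 members, against 26.3% of all genes tested. GSR was the exception.

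**Figure D1:**
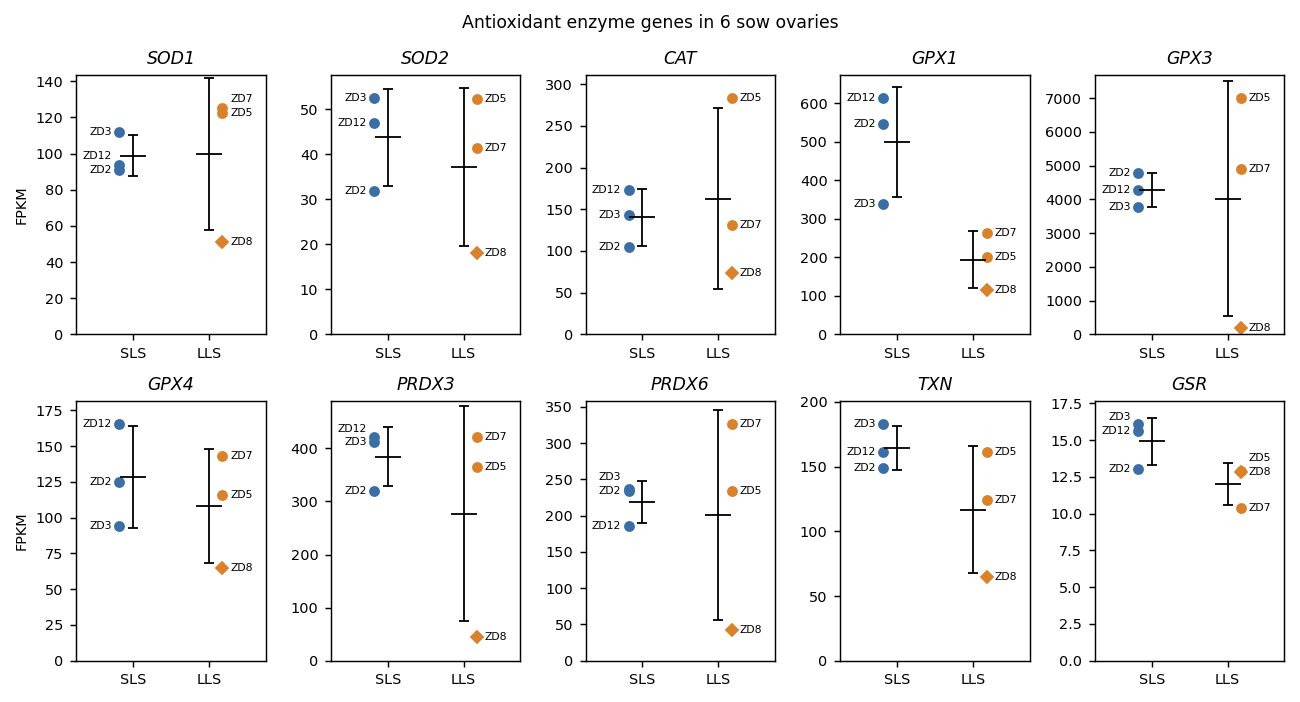
FPKM of each antioxidant enzyme gene (vertical axes, linear from 0) in the SLS ovaries (blue) and LLS ovaries (orange), with the ovary named beside each point, ZD8 as a diamond, and the group mean ± SD (n = 3) as a bar. ZD8 is lowest for 9 of 10 genes, and the 3 SLS ovaries sit above the 3 LLS ovaries for GPX1 and GSR.

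The superoxide dismutases were at intermediate levels. SOD1, the cytosolic copper-zinc enzyme (chromosome 13, 195326573 to 195335273, plus strand), was 90.8, 112 and 94.0 FPKM in ZD2, ZD3 and ZD12 and 122, 125 and 51.3 FPKM in ZD5, ZD7 and ZD8. The LLS group thus held both the highest values and the lowest. The means were 98.9 ± 11.3 FPKM in SLS and 99.7 ± 41.9 in LLS (SD, n = 3 each; exact two-sided permutation p = 1). The SOD1 gene overlaps SCAF4 on the opposite strand, and whether the counting used strand is not given in the sources used here. SOD2, the manganese enzyme of the mitochondrial matrix (chromosome 1, 7679352 to 7689564, plus strand), was 31.8, 52.5 and 46.9 FPKM in the SLS ovaries and 52.2, 41.3 and 18 in the LLS ovaries. The groups overlapped, with means of 43.7 ± 10.7 and 37.2 ± 17.5 FPKM (SD, n = 3 each; exact two-sided permutation p = 0.6). In ZD8 both dismutases were at least 1.77-fold below the lowest of the other ovaries. The ratio of SOD1 to SOD2 lay between 2.0 and 3.03 in all 6 ovaries and was 2.85 in ZD8.

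Catalase, the peroxisomal enzyme that splits hydrogen peroxide without a reducing partner (chromosome 2, 26493664 to 26533881, minus strand), had a wider spread in LLS than in SLS. CAT was 105, 144 and 173 FPKM in the SLS ovaries and 283, 131 and 73.9 FPKM in ZD5, ZD7 and ZD8. ZD5 was above every SLS ovary and ZD8 below all of them. The means were 141 ± 34.1 FPKM in SLS and 163 ± 108 in LLS (SD, n = 3 each; exact two-sided permutation p = 1). CAT is also abundant in red blood cells. HBB, the beta chain of haemoglobin, was 314 FPKM in ZD2, 63.1 in ZD3, 52.9 in ZD12, 54.8 in ZD5, 157 in ZD7 and 28.6 in ZD8. ZD5 was the highest ovary for CAT and the 4th for HBB. The summed level of the 5 red blood cell markers analysed was 53.8 to 320 FPKM in SLS and 28.9 to 161 in LLS, and the membrane marker SLC4A1 was at 0 in every ovary but ZD3. The part of red blood cells in the CAT values was not tested.

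The 3 glutathione peroxidases, which reduce peroxides with glutathione through the selenocysteine shown above, had 3 different patterns. GPX1, the cytosolic and mitochondrial enzyme (chromosome 13, 31916269 to 31917337, minus strand), was 547, 340 and 614 FPKM in ZD2, ZD3 and ZD12. It was 201, 264 and 116 FPKM in ZD5, ZD7 and ZD8. Every SLS ovary was above every LLS ovary, and the gap lay between 340 FPKM in ZD3 and 264 FPKM in ZD7. The reads behind these values were 26598, 14027 and 25950 in SLS and 9232, 12860 and 3002 in LLS. The means were 500 ± 143 FPKM in SLS and 194 ± 74.2 in LLS (SD, n = 3 each), and the difference LLS minus SLS was -1.40 on the log2(FPKM + 1) scale (SE 0.47, 95% interval -2.47 to -0.32). The unadjusted limma p was 0.0168, the adjusted p was 0.999, and the exact two-sided permutation p was 0.1, the smallest that 3 against 3 can give. Of all genes tested, 1.21% had an unadjusted limma p under 0.05 with the lower level in LLS, and GPX1 was the 1 member among them. Without ZD8 the difference was -1.07 (SE 0.34, adjusted p = 0.459 by limma), so that its direction did not rest on that ovary.

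Of the 52 cell type markers tested, 5 (9.62%) had every LLS ovary below every SLS ovary, as GPX1 did, against 3.17% of all genes tested. They were INHA of the granulosa list, ANPEP of the theca list, LHCGR and FDX1 of the luteal list and PECAM1 of the endothelial list. Every LLS ovary was above every SLS ovary for 1 of the 52 (EPCAM), against 1.95% of all genes tested. INHA, the inhibin alpha subunit, which granulosa and luteal cells make, was 553, 376 and 726 FPKM in ZD2, ZD3 and ZD12 and 285, 162 and 66.4 FPKM in ZD5, ZD7 and ZD8. As for GPX1, the SLS ovaries were all higher and ZD12 was the highest of the 6. The summed level of the 6 granulosa markers was 387 to 772 FPKM in SLS and 130 to 300 in LLS. INHA made up most of it, but in ZD8 it was 66.4 of 130 FPKM, with FOXL2 at 37.8. FSHR and AMH, the defining granulosa markers of growing follicles, did not follow this order. FSHR was 0.20 to 4.50 FPKM in SLS and 1.11 to 10.8 in LLS, AMH was 0.21 to 7.21 and 1.69 to 12.01, and CYP19A1 was at 0 in every ovary but ZD5, where it was 0.014 FPKM. LHCGR, the luteinising hormone receptor, was 27.8 to 70.5 FPKM in SLS and 10.4 to 24.2 in LLS. FDX1, which passes electrons to CYP11A1, was 537 to 589 FPKM in SLS, 516 and 506 in ZD5 and ZD7, and 34.1 in ZD8. SCARB1 and PTGFR of the luteal list were lowest in ZD8, but higher in ZD5 and ZD7 than in every SLS ovary. SCARB1 was 1044 to 1515 FPKM in SLS and 1665 and 1687 in ZD5 and ZD7. PTGFR was 57.8 to 138 FPKM in SLS and 148 in both ZD5 and ZD7. For STAR, CYP11A1, HSD3B1 and FDXR, ZD5 and ZD7 overlapped with SLS. ANPEP was 8.09 to 9.62 FPKM in SLS and 1.90 to 5.58 in LLS, and PECAM1 was 87.7 to 105 and 25.4 to 86.0. Other markers of the same lists went the other way over all 6 ovaries, and none of them passed the test. The differences LLS minus SLS were 0.39 for CYP17A1 and 0.91 for INSL3 in the theca list. In the endothelial list they were 0.17 for VWF and 0.08 for TEK. In the granulosa list they were 1.15 for FSHR, 0.96 for AMH and 0.27 for INHBA, while FOXL2 was at -0.29. For the 2 theca markers the direction rested on ZD8, at 117 FPKM for CYP17A1 and 298 for INSL3. In ZD5 and ZD7, CYP17A1 was 7.27 and 7.02 FPKM, against 9.12 to 29.4 in SLS. INSL3 was 11.6 and 2.28 FPKM there, against 4.82 to 45.1 in SLS. The part of cell composition in the GPX1 difference was not tested.

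GPX3, the secreted enzyme of plasma and extracellular fluid (chromosome 16, 71980467 to 71989011, minus strand), had the 4th highest mean level of the 12260 genes. It was 4795, 3773 and 4269 FPKM in the SLS ovaries, 6998 and 4890 FPKM in ZD5 and ZD7, and 189 FPKM in ZD8. Outside ZD8 the values ranged 1.85-fold and both LLS ovaries were above all SLS ovaries. ZD8 was 20.0-fold below the lowest of the others and 25.4-fold below their median. Only 0.163% of the genes tested had a wider gap between ZD8 and the nearest other ovary. The group means of 4279 ± 511 FPKM in SLS and 4025 ± 3486 in LLS (SD, n = 3 each; exact two-sided permutation p = 1) therefore describe no single LLS ovary. The difference was -1.19 on the log2 scale (95% interval -4.45 to 2.06) with all ovaries and 0.46 without ZD8, and neither passed the test. At 189 FPKM, from 9529 reads, GPX3 was still the highest of the 10 members in ZD8.

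GPX4, which reduces lipid hydroperoxides in membranes (chromosome 2, 77321568 to 77323931, minus strand), was 125, 94.3 and 165 FPKM in SLS and 116, 143 and 64.7 FPKM in LLS. The groups overlapped, and the means were 128 ± 35.5 and 108 ± 39.9 FPKM (SD, n = 3 each; exact two-sided permutation p = 0.6). ZD8 was 1.46-fold below the lowest of the other ovaries, one of the smallest such gaps among the members. Within single ovaries, the ratio of GPX1 to GPX4 was 4.37, 3.60 and 3.72 in ZD2, ZD3 and ZD12 and 1.73, 1.84 and 1.80 in ZD5, ZD7 and ZD8. In this ratio ZD8 was close to the other LLS ovaries. The ratio was chosen after its values were seen and was given no test. The ratio of GPX3 to GPX1 was 6.96 to 11.11 in SLS, 34.9 and 18.5 in ZD5 and ZD7, and 1.62 in ZD8.

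Both peroxiredoxins followed the gap of GPX3 at a smaller size. PRDX3, the mitochondrial peroxiredoxin (chromosome 14, 129079050 to 129090790, minus strand), was 320, 411 and 422 FPKM in SLS, 365 and 421 FPKM in ZD5 and ZD7, and 45.5 FPKM in ZD8. It was the steadiest member outside ZD8, with a coefficient of variation of 11.5% over 5 ovaries, against a median of 24.1% over all genes tested. ZD8 was 7.03-fold below the lowest of the others, and 0.669% of genes had a wider gap. PRDX3 ranked 2 or 3 among the 10 members in the other 5 ovaries and 7 in ZD8. The difference LLS minus SLS was -0.99 (SE 0.80) with ZD8 and 0.037 (SE 0.29) without it. PRDX6, which uses a single cysteine and also acts on phospholipids (chromosome 9, 115857629 to 115868898, plus strand), was 234, 237 and 186 FPKM in SLS, 233 and 326 FPKM in ZD5 and ZD7, and 41.9 FPKM in ZD8. ZD8 was 4.44-fold below the lowest of the others, and 1.29% of genes had a wider gap. PRDX6 overlaps LOC100624136 on the opposite strand. The exact two-sided permutation p between the groups was 0.6 for PRDX3 and 0.8 for PRDX6.

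GPX3, PRDX3 and PRDX6 were the members at least 2-fold lower in ZD8 than in every other ovary, as were 7.5% of all genes tested. PRDX3 and SOD2 both act in mitochondria, but their gaps differed. The ratio of PRDX3 to SOD2 was 6.98 to 10.2 in the other 5 ovaries and 2.53 in ZD8. The nuclear-encoded mitochondrial genes CS, VDAC1, TOMM20 and TFAM summed to 334 to 363 FPKM in the other 5 ovaries and to 129 FPKM in ZD8, and 3 of the 4 were lowest there. ZD8 was 2.54-fold below the lowest of the others for CS, 2.89-fold for VDAC1 and 1.21-fold for TOMM20, while TFAM was lowest in ZD2. COX4I1, ATP5F1B and UQCRC1 of the same list were not found under these symbols. The part of mitochondrial content in the PRDX3 and SOD2 values was not tested.

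**Figure D2:**
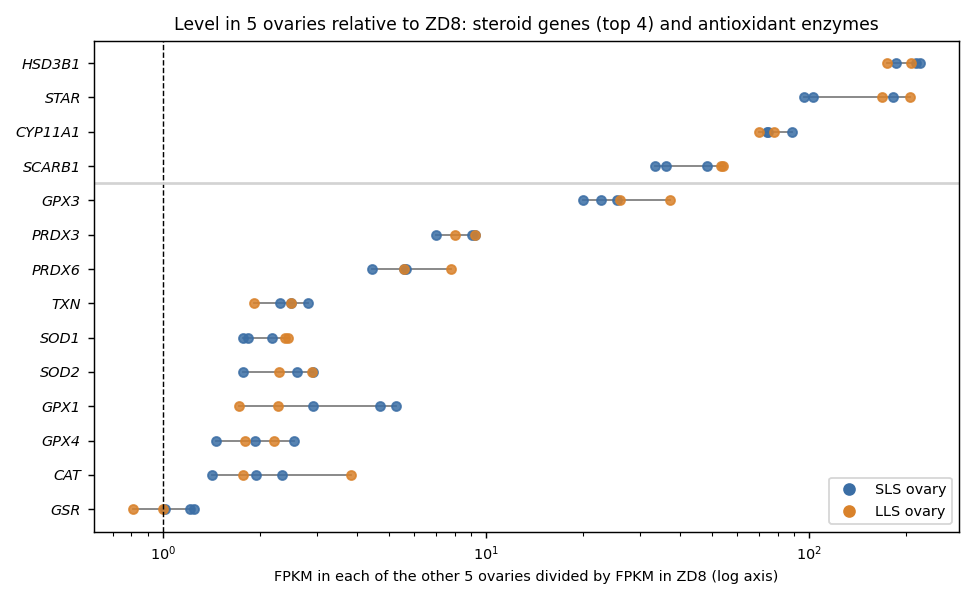
FPKM in each of the other 5 ovaries divided by FPKM in ZD8 (horizontal log axis) for 4 steroid genes and the 10 antioxidant enzymes, with SLS ovaries in blue, LLS ovaries in orange and the dashed line at equal levels. HSD3B1 lies at 175-fold or more, GPX3 at 20.0-fold or more, PRDX3 at 7.03-fold or more, and GSR on both sides of the line.

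TXN and GSR supply reducing power. TXN, the small dithiol protein that reduces peroxiredoxins and other targets (chromosome 1, 251264180 to 251278000, minus strand), was 149, 183 and 161 FPKM in SLS and 162, 124 and 64.6 FPKM in LLS. The groups overlapped only through ZD5. The means were 164 ± 17.0 and 117 ± 48.9 FPKM (SD, n = 3 each; exact two-sided permutation p = 0.3), and ZD8 was 1.92-fold below the lowest of the others. TXN overlaps LOC110256047 on the opposite strand. GSR, which regenerates glutathione (chromosome 15, 54382564 to 54433989, plus strand), was the least abundant member, at 13.1, 16.1 and 15.6 FPKM in SLS and 12.9, 10.4 and 12.8 FPKM in LLS. The groups did not overlap, but ZD2 in SLS and ZD5 in LLS were separated by less than the spread within either group. The means were 14.9 ± 1.62 and 12.03 ± 1.43 FPKM (SD, n = 3 each), the difference was -0.29 (SE 0.25, limma p = 0.277) and the exact two-sided permutation p was 0.1. GSR was lowest in ZD7, and ZD8 lay within the range of the others. The ratio of TXN to GSR was 10.3 to 12.5 in the other 5 ovaries and 5.04 in ZD8.

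Counted over all 6 ovaries, GPX1 and GSR were the 2 members with every LLS ovary below every SLS ovary, a pattern shown by 3.17% of the genes tested. No member had every LLS ovary above every SLS ovary, as 1.95% of genes did. The median difference was -0.44 over the 10 members and 0.02 over all genes tested, and 9 of 10 members had a lower LLS mean of log2(FPKM + 1) against 47.4% of all genes. SOD1 was among the 9 on that scale but had the slightly higher LLS mean in FPKM. Without ZD8, 3 of the 10 had a lower LLS mean of log2(FPKM + 1) (GPX1, TXN and GSR) against 66.0% of all genes, and the median over the members was 0.080. The differences were then 0.33 for SOD1, 0.12 for SOD2, 0.48 for CAT, 0.045 for GPX4, 0.34 for PRDX6, -0.21 for TXN and -0.33 for GSR, and none passed the test. GPX1 and GSR still did not overlap then, in a pattern shown by 11.7% of genes. GPX3 and SOD1 were higher in both remaining LLS ovaries than in all SLS ovaries, as were 7.44% of genes.

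**Figure D3:**
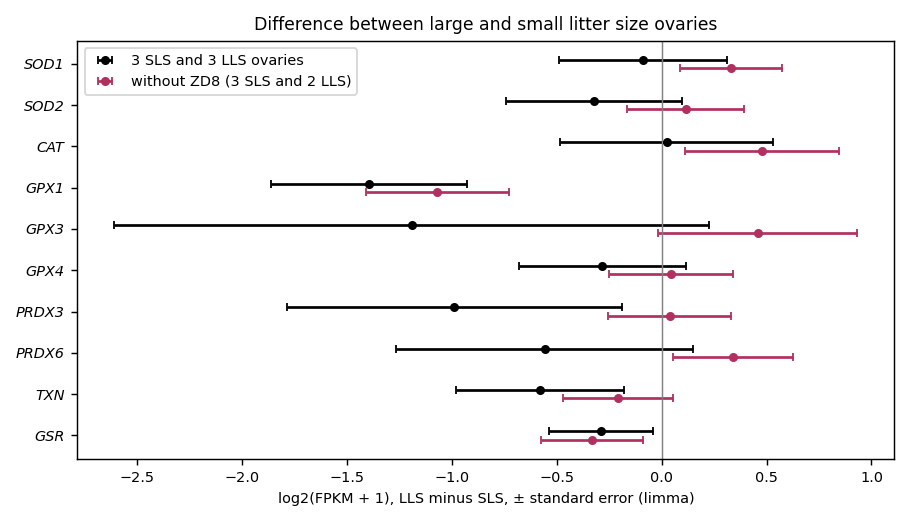
Difference LLS minus SLS in log2(FPKM + 1) for each antioxidant enzyme (horizontal axis; points are limma estimates and bars standard errors), with all 6 ovaries in black and without ZD8 in red. GPX1 stays below 0 in both fits, at -1.40 and -1.07, while GPX3 goes from -1.19 to 0.46 and PRDX3 from -0.99 to 0.037.

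GPX3 made up most of the summed level of the 10 members in the 5 ovaries where STAR, CYP11A1, HSD3B1 and SCARB1 were high. The sum was 6411, 5363 and 6147 FPKM in ZD2, ZD3 and ZD12, 8545 and 6476 FPKM in ZD5 and ZD7, and 678 FPKM in ZD8. GPX3 held 69.4% to 81.9% of it in the other 5 ovaries and 27.8% in ZD8. Without GPX3, the other 9 members summed to 1547 to 1878 FPKM in the 5 ovaries and to 489 FPKM in ZD8. GPX1 held 33.8%, 21.4% and 32.7% of this remainder in ZD2, ZD3 and ZD12, 13.0% and 16.7% in ZD5 and ZD7, and 23.8% in ZD8. As a share of the remainder, then, GPX1 in ZD8 lay within the SLS range, while its level was the lowest of all. GPX3 was the highest member, SOD2 the 9th and GSR the lowest in each of the 6 ovaries. Between these, the order by mean was GPX1, PRDX3, PRDX6, CAT, TXN, GPX4 and SOD1, and the ranges of neighbours in this order overlapped.

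**Figure D4:**
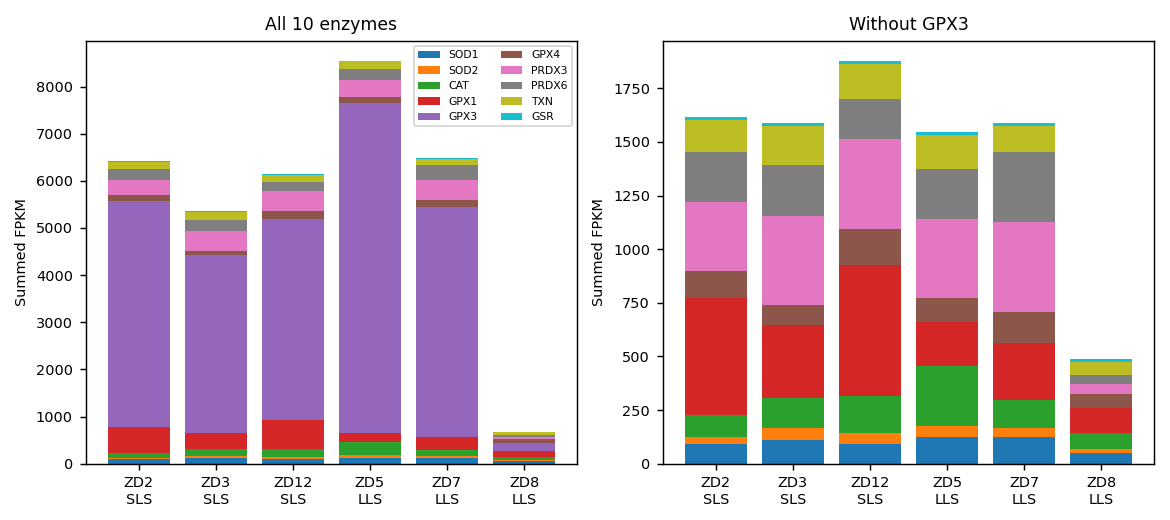
Stacked FPKM of all 10 antioxidant enzymes (left, vertical axis in FPKM) and of the 9 without GPX3 (right) in each ovary, with a colour for each gene. The total is 5363 to 8545 FPKM in 5 ovaries and 678 in ZD8, and GPX3 is the largest block in each bar at left.

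Beside the steroid genes, the members spanned a wide range of gaps. ZD8 was 175-fold below the lowest other ovary for HSD3B1, 96.3-fold for STAR, 69.9-fold for CYP11A1 and 33.4-fold for SCARB1. The gap of GPX3 was smaller than all 4, and those of the 6 members SOD1, SOD2, CAT, GPX1, GPX4 and TXN lay between 1.42-fold and 1.92-fold. On the log2 scale, the difference between ZD8 and the median of the other ovaries had a median of -1.32 over the members and 0.23 over all genes tested. By the sum of these 4 genes, the order of the other 5 ovaries was ZD5 (12021 FPKM), ZD7 (10686), ZD3 (10599), ZD2 (9520) and ZD12 (9045). ZD5 and ZD7 were also the 2 highest for GPX3, while ZD3 had the lowest GPX3 of the 5. PRDX3 and GPX1 were highest in ZD12, the lowest of the 5 by this sum. As the ovaries fall into 5 and 1, no correlation is given. Other cell markers also differed in ZD8. The endothelial markers summed to 274 to 400 FPKM in the others and 128 FPKM in ZD8, with 5 of 6 lowest there. The macrophage markers summed to 50.3 to 102 FPKM and 87.2 FPKM, with 1 of 7 lowest there. CYP17A1, the theca enzyme of androgen synthesis, was 7.02 to 29.4 FPKM in the others and 117 FPKM in ZD8, so not every steroid gene was low there. The oocyte markers summed to 6.45 to 23.7 FPKM in the others and 128 FPKM in ZD8. Their part in the members' values was not tested.

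The remaining genes of the redox network were read from 9 lists with 98 genes, of which 82 were tested. None passed the test, 3 had an unadjusted limma p under 0.05 with the lower level in LLS (GPX7, CHAC1 and NCOA4) and 0 with the higher level. The 3 are 3.66% of the 82, against 1.21% of all genes tested. Every LLS ovary lay below every SLS ovary for 5 of the 82 and above every SLS ovary for 3. The shares over all genes tested were 3.17% and 1.95%. ZD8 was the lowest ovary for 48 of the 82 (58.5%), a smaller share than for the 10 members and above that of all genes.

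Among the other peroxiredoxins, thioredoxins and glutaredoxins, ZD8 was lowest for 10 of 14. PRDX2, a cytosolic peroxiredoxin that is abundant in red blood cells, was 1837, 1334 and 1302 FPKM in SLS, 1175 and 1407 FPKM in ZD5 and ZD7, and 207 FPKM in ZD8, which placed it above every member but GPX3 in 5 ovaries and above every member in ZD8. SRXN1, which repairs overoxidised peroxiredoxins, was 33.1 to 66.2 FPKM in the other ovaries and 3.46 FPKM in ZD8. TXN2, the mitochondrial thioredoxin that serves PRDX3, was 84.9 to 176 FPKM and 40.3 FPKM. TXNIP, which binds and inhibits thioredoxin, went the other way, at 243 to 517 FPKM in the others and 632 FPKM in ZD8. PRDX4, a peroxiredoxin of the secretory pathway, was 63.4 to 77.7 FPKM in SLS and 34.9 to 60.0 in LLS without overlap (exact two-sided permutation p = 0.1, limma adjusted p = 0.999).

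Of the 7 other superoxide dismutases and glutathione peroxidases, 4 were tested. SOD3, the extracellular dismutase, was 14.2 to 31.8 FPKM in the other ovaries and 0.88 FPKM in ZD8. GPX7, an endoplasmic reticulum peroxidase without selenocysteine, was 35.6, 27.5 and 22.4 FPKM in SLS and 18.4, 19.4 and 12 FPKM in LLS. Like GPX1 it did not overlap between the groups (difference -0.75, limma p = 0.0365, exact two-sided permutation p = 0.1, adjusted p = 0.999). GPX5 was at 0 in all 6 ovaries, and GPX2 and GPX6 were below 0.4 FPKM.

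Most tested genes of the glutathione and NADPH lists, which hold genes of supply and of breakdown, were lowest in ZD8. In glutathione synthesis and cystine import, 5 of 7 were lowest there. GGT1, which breaks down glutathione outside the cell, was 206 to 486 FPKM in the other ovaries and 14.7 FPKM in ZD8, and GCLM, the regulatory subunit of the first step of synthesis, was 13.6 to 39.2 FPKM and 5.12 FPKM. CHAC1, which degrades glutathione inside the cell, was 20.0, 15.8 and 37.7 FPKM in SLS and 10.7, 6.03 and 2.60 FPKM in LLS (difference -1.84, limma p = 0.00493, exact two-sided permutation p = 0.1, adjusted p = 0.999). In NADPH supply, 7 of 9 were lowest in ZD8, with a list median of -1.55 for ZD8 minus the median of the others. IDH1, a cytosolic source of NADPH, was 79.5 to 104 FPKM in the other ovaries and 8.24 FPKM in ZD8, and ME1, another, was 38.9 to 59.9 FPKM and 4.13 FPKM. IDH2, the mitochondrial counterpart, did not overlap between the groups, at 51.5 to 68.2 FPKM in SLS and 36.0 to 44.7 FPKM in LLS, while ME3 was higher in each LLS ovary, at 13.4 to 15.4 FPKM against 8.56 to 13.3. Of the glutathione transferases, 5 of 8 were lowest in ZD8, and GSTA1 was 342 to 801 FPKM in the others and 13.9 FPKM there.

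The NRF2 list, which holds the regulator of many antioxidant genes and its classical targets, had 3 of 11 genes lowest and 7 highest in ZD8, where 26.3% of all genes tested were lowest and 44.6% highest. NFE2L2, which encodes NRF2, was 6.75 to 12.5 FPKM in the other ovaries and 15.7 FPKM in ZD8, and KEAP1, its inhibitor, was 23.0 to 30.2 FPKM and 30.7 FPKM. The ferritin chains FTH1 and FTL were 944 to 1570 and 537 to 1233 FPKM in the others and 1687 and 1395 FPKM in ZD8. HMOX1, haem oxygenase, was 17.5 to 31.9 FPKM and 17.2 FPKM, and NQO1, a quinone reductase, was 9.35 to 14 FPKM and 7.42 FPKM. No gene of this list separated the groups.

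The selenoprotein list covers the insertion of selenocysteine that GPX1, GPX3 and GPX4 need. ZD8 was lowest for 7 of 13 and highest for 4. SECISBP2, which recruits the insertion machinery to selenoprotein mRNAs, was 4.09, 4.97 and 5.13 FPKM in SLS and 5.93, 6.05 and 8.38 FPKM in LLS, so it was higher in each LLS ovary (difference 0.43, limma adjusted p = 0.999). EEFSEC, the elongation factor for selenocysteine, was 1.67 to 3.66 FPKM in the others and 7.05 FPKM in ZD8. SELENOP, the plasma carrier of selenium, was 811 to 1476 FPKM and 794 FPKM, and MSRB1, a selenoprotein that reduces oxidised methionine, was 94.6 to 196 FPKM and 35.6 FPKM. SELENOK, a membrane selenoprotein of the endoplasmic reticulum, was 35.6 to 46.5 FPKM in SLS and 50.4 to 80.4 in LLS.

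On the side that makes oxidants, 2 of 9 oxidase genes were lowest in ZD8 and 4 highest, near the 26.3% and 44.6% of all genes tested. MAOB, which releases hydrogen peroxide at the mitochondrial outer membrane, was 35 to 156 FPKM in the others and 10.1 FPKM in ZD8, and NOX4 was 2.04 to 2.99 FPKM and 3.97 FPKM. In the list of ferroptosis and lipid peroxide control, the setting of GPX4, 6 of 7 were lowest in ZD8. ACSL4, which loads membranes with oxidisable fatty acids, was 144 to 509 FPKM in the others and 10.6 FPKM in ZD8. NCOA4, the ferritin receptor for autophagy, was 42.8, 68.4 and 64.0 FPKM in SLS and 37.1, 26.8 and 21.3 FPKM in LLS (difference -1.02, limma p = 0.0120, exact two-sided permutation p = 0.1, adjusted p = 0.999).

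**Figure D5:**
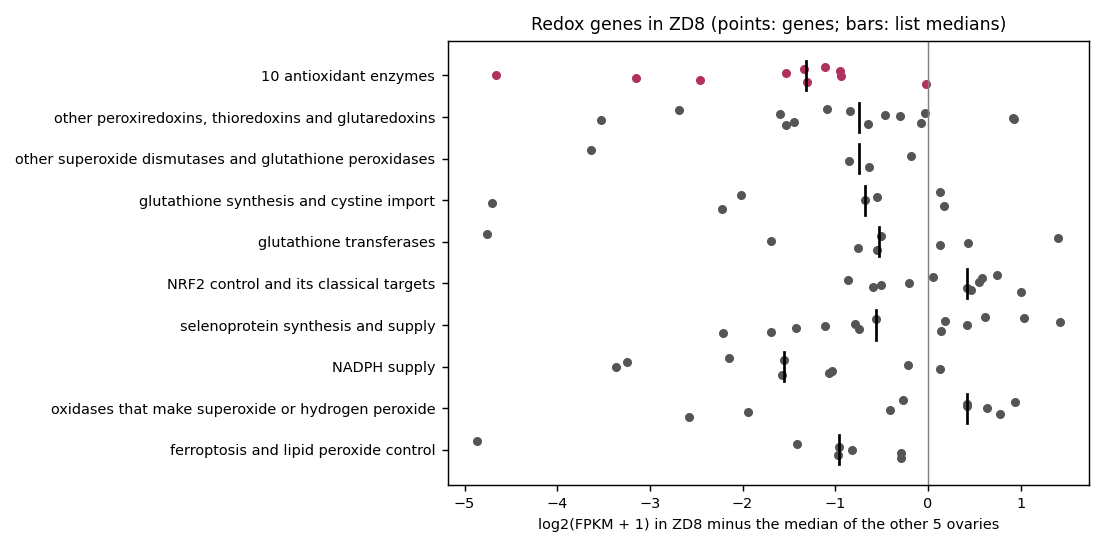
Difference between ZD8 and the median of the other 5 ovaries in log2(FPKM + 1) (horizontal axis) for each tested gene (points) of the 10 antioxidant enzymes (red) and of 9 redox gene lists (grey), with list medians as black bars. The enzymes have a median of -1.32 and the NADPH supply list -1.55, while the NRF2 and oxidase lists lie at 0.42.

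The promoters of the members were searched for 2 motifs, from 250 bases before to 50 after the annotated start, on both strands of Sscrofa11.1. The core of the antioxidant response element bound by NRF2, TGACNNNGC, was present in 12.2% of 20664 promoters and in those of 2 members, GPX4 and TXN. The site of NR5A1, a regulator of steroid genes, CAAGGTCA, was present in 1.38% of promoters and in 0 of the 10, which says only that these letters are not in this window. The matches are shown with the motif in capitals, as it reads on the strand of the gene, where it appears in reverse complement, at chr2:77324102-77324131 for GPX4 and chr1:251278003-251278032 for TXN, both on the minus strand. The motif begins 190 bases before the start of GPX4 and 22 before that of TXN. Their gaps in ZD8 were 1.46-fold and 1.92-fold. Members without a match had gaps as small, at 1.77-fold for SOD1 and SOD2, 1.42-fold for CAT and 1.72-fold for GPX1. Small gaps were therefore not particular to the members with a match.
GPX4 promoter: ctgagagcatGCGCAGTCAcctacagcaac
TXN promoter: gcactaaactGCTGTGTCAcgccgaagcag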

How the data were processed

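The authors removed ribosomal RNA, trimmed the reads, mapped them to Sscrofa11.1 with HISAT2 and deposited FPKM values per gene. The program that counted reads is not given in the sources used here. Here, limma 3.58.1 in R 4.3.3 (trended variance) compared LLS with SLS on log2(FPKM + 1), a scale that understates the change of low genes, for genes with at least 1 FPKM in at least 3 libraries. A call needed an adjusted p (Benjamini-Hochberg) below 0.05 and a log2 difference beyond 1 in size. Single genes had an exact two-sided permutation test. Whole reads were recovered from FPKM and annotated transcript lengths for 23477 of 23564 genes above 0 (99.6%, tolerance 0.01 read), and each member had at least 972 reads per library. Library totals were inferred in the same step, as the scaling that turned low values into whole reads. P-values measure the spread between ovaries. No batch is labelled. The script was run on simulated reads with the same spread for all genes and no outlying ovary. That run does not show its power with an ovary like ZD8. No member had a copy elsewhere in the genome (BLAST 2.17.0, at least 95% identity over 200 bases). The members and lists were chosen with earlier results of these data known. All members were named, and from each list genes without overlap between groups, up to 3 with the highest mean and up to 3 with the widest gap in ZD8 could be named. Genes named for their role in the text (such as NFE2L2 and KEAP1) were chosen after their values were seen. Alternatives covered the pseudocount, filter, scaling, variance trend, array weights, recovered reads and each ovary left out. The miRNA table was not used.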

Additional observations from a re-analysis of the deposited data

How the results depend on the processing

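None of the 10 enzymes was called under any of the 16 alternatives. The number of genes called was 0 under all but 2 of them, 13 with limma's array weights, which gave ZD8 a weight of 0.135, and 20 without ZD8, so that leaving out 1 ovary gave 0 to 20. Genes with an unadjusted limma p under 0.05 numbered 216 in the main fit, 91 without ZD2, 709 without ZD8 and 1252 with array weights. GPX1 was lower in LLS under all 16, with limma adjusted p of 0.139 (array weights) to 0.99999. When 1 ovary was left out, its difference was -1.66 to -1.07. Its unadjusted limma p was above 0.05 without ZD2 (0.0567) and without ZD12 (0.0665). TXN and GSR kept their direction. When 1 ovary was left out, SOD1 ranged from -0.31 to 0.33, SOD2 from -0.63 to 0.12, CAT from -0.48 to 0.48, GPX3 from -2.15 to 0.46, GPX4 from -0.52 to 0.045, PRDX3 from -1.55 to 0.037 and PRDX6 from -1.13 to 0.34, and each was above 0 without ZD8. Array weights gave 0.34 for SOD1, 0.11 for SOD2, 0.28 for GPX3 and 0.32 for PRDX6. Quantile normalization gave 0.0098 for SOD1, and CAT was -6.2e-05 after median centring and -0.013 with limma voom on recovered reads. The cause was not tested beyond the ovaries left out or weighted down. ZD8 was lowest for 9 members as deposited and after rescaling to TPM, for 8 after quantile normalization (not CAT or GSR) and for 10 after median centring. The median difference between ZD8 and the median of the others was 0.23 over all genes. The voom fit and the median-centred count were chosen after seeing the data. The planned edgeR and DESeq2 fits were not run. The deposited values are FPKM, and the reads recovered from them were used for limma voom only. No paired analysis was possible because the labels give no shared replicate numbers. Depth did not limit the members. For a gene of 1 kb, 3 reads are 0.049 to 0.093 FPKM.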

Other observations

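ALOX15, a lipoxygenase that makes lipid hydroperoxides, the substrates of GPX4, split the ovaries in a way that no member did. It was 30.4 FPKM in ZD2 and 29.8 in ZD3, 0.021 in ZD12, 0.024 in ZD5 and 0.058 in ZD7, and listed at 0 in ZD8. With under 1 FPKM in 4 of the 6 libraries it was not tested, and it was chosen after its values were seen.

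The markers of theca cells summed to 11.7 to 83.6 FPKM in the other 5 ovaries and 421 in ZD8, mostly from INSL3 at 298 FPKM. Stromal markers summed to 3768 to 9586 FPKM in the others and 3373 in ZD8, and smooth muscle markers to 314 to 1796 and 914. Single markers of both lists were highest in ZD8, with DCN at 1854 FPKM against 363 to 859, PDGFRA at 220 against 93.9 to 123 and MYH11 at 190 against 15.5 to 47.1. The T cell markers summed to 2.46 to 5.21 FPKM in the others and 13.5 in ZD8, the neutrophil markers to 1.14 to 2.56 and 5.18, with MPO at 0 in all 6, and the surface epithelium markers to 7.5 to 54.2 and 20.5. The surface epithelium marker EPCAM was 27.8 FPKM in ZD5, 9.73 in ZD7 and 2.31 in ZD8, and 0.31 to 1.28 in SLS (limma p = 0.00495, exact two-sided permutation p = 0.1, adjusted p = 0.999). The other 3 tested markers of that list had lower LLS means of log2(FPKM + 1), with differences of -1.16 for KRT8, -1.47 for KRT19 and -0.23 for KRT7, and the median of the list was -0.69.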
